A study of Schizosaccharomyces pombe with 8 samples.

Results

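Small RNA over introns of the fission yeast Schizosaccharomyces pombe was described in 8 libraries, 1 per strain. The rows examined were those of the deposited table whose class is intron, on all 3 chromosomes, without the intron of cox4. There were 935 such introns among 17962 rows. Of these, 907 lie in 1 of 525 transcript rows and were compared with that transcript. They were assigned to 534 genes by name or position and have lengths of 35 to 837 nt with a median of 60 nt. The table gives 52 of the rows a numbered "unknown" name in place of a gene ID.

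The series set mutants in genes of the Paf1 complex, a group of proteins that accompanies elongating RNA polymerase II, against wt. Its 7 mutant libraries carry the labels Paf1Δ, Leo1Δ, Cdc73-G313R, Leo1-W157Stop, Paf-1Q264Stop, Paf1-G104R and Rot1-Q472Stop. All strains, wt included, carried ade6-hp+, a genotype that the labels do not expand. Cells were grown in rich medium at 30 °C to an OD600 of 0.5, and RNA of 18 to 28 nt was sequenced. Each strain had 1 library, so no difference has a replicate check, no p-value is given and whether a strain is 1 clone is not stated in the sources used here.

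Introns of fission yeast are short, and the spliceosome recognises them by a 5′ splice site that begins with GT in the DNA, a branch site near the 3′ end and a closing AG. They are removed from the transcript in the nucleus and the released lariats are normally degraded quickly. In this yeast small RNAs loaded on Argonaute direct heterochromatin formation, and splicing factors are known to take part in that pathway. RNA that covers an intron can come from an unspliced precursor, from the excised intron or from a transcript on the other strand.

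Values are the authors' deposited levels, log2(n + 8), where n is a read number divided by row length and scaled to a common total. A row without reads has a level of 3. The value of 1 read was recovered in each library, and read numbers below are these recovered numbers. They summed over all rows to 1192698 in Paf1Δ, 2351446 in Leo1Δ, 917880 in Cdc73-G313R, 1386956 in Leo1-W157Stop, 3156344 in Paf-1Q264Stop, 3139689 in Paf1-G104R, 1868621 in Rot1-Q472Stop and 6422566 in wt. Introns held between 0.00929% (Cdc73-G313R) and 0.0341% (Paf1Δ) of these. At such depth 3 reads, the limit that a count of 0 allows, correspond in an intron of 60 nt to a level between 4.53 and 5.78 in the mutants and 4.16 in wt.

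The genes of the strain labels, counted without their UTRs, did not all go with the labels. The library labelled Leo1Δ held 2 reads over leo1 where the wt level predicts 29.0, and that labelled Paf1Δ held 0 over paf1 where 1.47 are predicted, too few to show a loss. The libraries labelled Leo1-W157Stop and Paf-1Q264Stop had 519 reads over leo1, against 62 in wt, and 182 over paf1, against 7 in wt. In other libraries a gene that the label does not name had a raised level. It was paf1 in that labelled Cdc73-G313R (26 reads, against 7 in wt), prf1 in that labelled Paf1-G104R (823 reads, against 1 in wt) and cdc73 in that labelled Rot1-Q472Stop (149 reads, against 8 in wt). Every difference given for these 3 libraries carries that conflict. Which gene the name Rot1 stands for in the label is not stated in the sources used here, and no gene was tested as its target. At lower read numbers the library labelled Paf1Δ also had more than the wt level predicts over cdc73 (9 reads, against 8 in wt, a level ratio of 5.37 with an interval of 1.84 to 16.0) and over prf1 (4 reads, against 1 in wt). None of these genes has an intron row here.

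Strand was examined on structural RNA. Rows that overlap a tRNA gene from the other strand had a median of 7778 wt reads (7 rows), against 50.8 for rows on the strand of the tRNA (6 rows). For snoRNA genes the medians were 416 (15 rows) and 17.6 (36 rows). At these genes reads thus stood mostly in rows labelled with the other strand. The 7 introns that hold a whole snoRNA row, taken without regard to its strand, had at most 12 reads in any library. Whether intron rows likewise hold reads of the strand opposite to their label was not tested.

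The table's intron rows were located on the RefSeq genome assembly ASM294v3, whose chromosome lengths of 5579133, 4539804 and 2452883 equal the largest row ends in the table. Of the 935 rows 885 have the coordinates of an annotated intron, 868 of them in a coding region, 12 in a 5′ UTR and 5 in a 3′ UTR. As a check of the rows themselves, 99.3% start with GT, 56.0% start with GTANGT and 99.1% end with AG on the labelled strand. On the other strand of the same intervals the shares were 0.107%, 0% and 0.107%. A branch site motif (CTAAC or CTAAT, or with G as the middle base CTGAC or CTGAT) was present in 78.8% of introns, with a median of 8 nt between it and the final AG, and in 27.7% of the same intervals read on the other strand. A match is a description of the letters and not a mapped branch site.

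The sequences of the introns that the results turn on are printed 5′ to 3′ on the intron's strand, from the RefSeq genome ASM294v3. Capitals mark the first 6 bases of an intron that begins with GT, the branch motif nearest the 3′ end and the final AG. The first set shows introns that held most of the reads of all introns of their gene, with the nearly empty intron 1 of lsm6 for comparison.
lsm6 intron 2, chr1:3923722-3923771, minus strand: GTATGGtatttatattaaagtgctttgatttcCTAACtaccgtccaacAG
lsm6 intron 1, chr1:3923886-3923994, minus strand: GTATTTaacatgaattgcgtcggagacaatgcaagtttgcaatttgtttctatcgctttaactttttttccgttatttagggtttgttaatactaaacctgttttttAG
rec12 intron 2, chr1:1773373-1773422, plus strand: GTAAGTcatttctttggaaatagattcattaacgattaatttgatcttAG
vps35 intron 1, chr3:1621164-1621203, plus strand: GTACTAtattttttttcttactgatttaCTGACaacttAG
amk2 intron 4, chr3:2207775-2207822, minus strand: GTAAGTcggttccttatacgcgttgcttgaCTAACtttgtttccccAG
qcr10 intron 3, chr2:2884581-2884630, plus strand: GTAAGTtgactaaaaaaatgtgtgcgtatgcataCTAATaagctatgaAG
The second set shows the introns with the largest positive differences from wt in Paf1Δ (pla1, ubc4).
pla1 intron 3, chr2:930739-930779, plus strand: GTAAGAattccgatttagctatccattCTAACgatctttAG
ubc4 intron 1, chr2:715453-715531, plus strand: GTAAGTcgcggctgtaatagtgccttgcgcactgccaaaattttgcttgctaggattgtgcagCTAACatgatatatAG

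Most introns had 0 reads in a given library. At least 1 read was recovered in 185 introns in Paf1Δ, 171 in Leo1Δ, 58 in Cdc73-G313R, 108 in Leo1-W157Stop, 193 in Paf-1Q264Stop, 182 in Paf1-G104R, 181 in Rot1-Q472Stop and 255 in wt. The wt number is 27.3% of introns (24.4 to 30.3%, exact 95% Clopper-Pearson interval, counting error only), and wt was also the deepest library. Over all libraries 500 introns had a read somewhere, 435 had none, and 17 had a read in every library. The introns with a read had a median length of 69.5 nt and 68.7% A and T, and those without had a median of 54 nt and 71.1%. Summed over introns, the reads came to 407 in Paf1Δ, 476 in Leo1Δ, 85 in Cdc73-G313R, 286 in Leo1-W157Stop, 791 in Paf-1Q264Stop, 758 in Paf1-G104R, 469 in Rot1-Q472Stop and 1636 in wt. On the scale of the deposited values, with the floor removed, the summed level was 1.03 times that of wt in Paf1Δ, 0.575 in Leo1Δ, 0.187 in Cdc73-G313R, 0.620 in Leo1-W157Stop, 0.765 in Paf-1Q264Stop, 0.761 in Paf1-G104R and 0.662 in Rot1-Q472Stop.

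A level of 5, which is 2 above the floor, was reached by 45 introns in Paf1Δ, 19 in Leo1Δ, 4 in Cdc73-G313R, 25 in Leo1-W157Stop, 24 in Paf-1Q264Stop, 27 in Paf1-G104R, 20 in Rot1-Q472Stop and 35 in wt. In all, 80 introns reached it in some library, and the intron with that level in every library was lsm6 intron 2. The number depends on what 1 read is worth. In an intron of 38 nt 1 read gave a level of 5.04 in Paf1Δ and 3.72 in wt, and 9 of the 45 introns of Paf1Δ rested on 1 read, against 1 of 25 in Leo1-W157Stop and 0 in the other libraries.

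The reads were concentrated in few introns. In wt 10 introns held 45.4% of all intron reads and 2 held 20.8%. The highest level was that of intron 2 of lsm6, which encodes a subunit of the Lsm rings that bind U6 small nuclear RNA or decaying mRNA. It held 9 reads in Paf1Δ, 21 in Leo1Δ, 2 in Cdc73-G313R, 8 in Leo1-W157Stop, 88 in Paf-1Q264Stop, 47 in Paf1-G104R, 17 in Rot1-Q472Stop and 165 in wt. Its level was 9.08 in Paf-1Q264Stop and at most 8.28 in the other mutants, against 9.36 in wt, so all 7 mutants were below wt. The level ratio to wt was lowest in Cdc73-G313R, 0.0448 (0.00538 to 0.165), and highest in Paf-1Q264Stop, 0.821 (0.626 to 1.07), where the interval of the counts includes 1.

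The intron of bqt1, which encodes a protein that tethers telomeres in meiosis, lies opposite cfr1 (chr1:3272266-3272416). It had 22 reads in Paf1Δ, 26 in Leo1Δ, 4 in Cdc73-G313R, 9 in Leo1-W157Stop, 72 in Paf-1Q264Stop, 68 in Paf1-G104R, 42 in Rot1-Q472Stop and 176 in wt. Its level was below wt in all 7 mutants, with a median difference of -0.71 and ratios between 0.0841 and 0.631. Intron 1 of swi5, a recombination and mating-type switching gene, lies opposite mis12 (chr2:1138065-1138116) and did not follow that order. It had 1 read in Paf1Δ, 21 in Leo1Δ, 1 in Cdc73-G313R, 29 in Leo1-W157Stop, 29 in Paf-1Q264Stop, 52 in Paf1-G104R, 10 in Rot1-Q472Stop and 52 in wt. Its level ratio to wt was 0.0919 (0.00228 to 0.535) in Paf1Δ. The ratio was above 1 in Leo1-W157Stop, at 2.03 (1.24 to 3.25), and in Paf1-G104R, at 1.63 (1.09 to 2.45).

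Intron 2 of erg28, an ergosterol synthesis gene, lies opposite dre2 (chr2:1047879-1047942) and had 1 to 28 reads in the mutants, against 54 in wt. Its level was below wt in 6 mutants and above wt in Leo1-W157Stop, at 7.79 against 7.45, a ratio of 1.28 (0.716 to 2.19). Both introns of min8 lie opposite SPAC1B3.01c. Intron 2 of min8 (chr1:4926730-4926794) had 14 reads in Paf1Δ, 10 in Leo1Δ, 2 in Cdc73-G313R, 10 in Leo1-W157Stop, 33 in Paf-1Q264Stop, 30 in Paf1-G104R, 23 in Rot1-Q472Stop and 30 in wt. Its level ratio to wt was 2.23 (1.09 to 4.34) in Paf1Δ and 1.98 (1.10 to 3.52) in Rot1-Q472Stop. Intron 1 of min8, 48 nt long, had levels of 4.54 to 7.47 in the mutants, against 7.08 in wt.

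**Figure D1:**
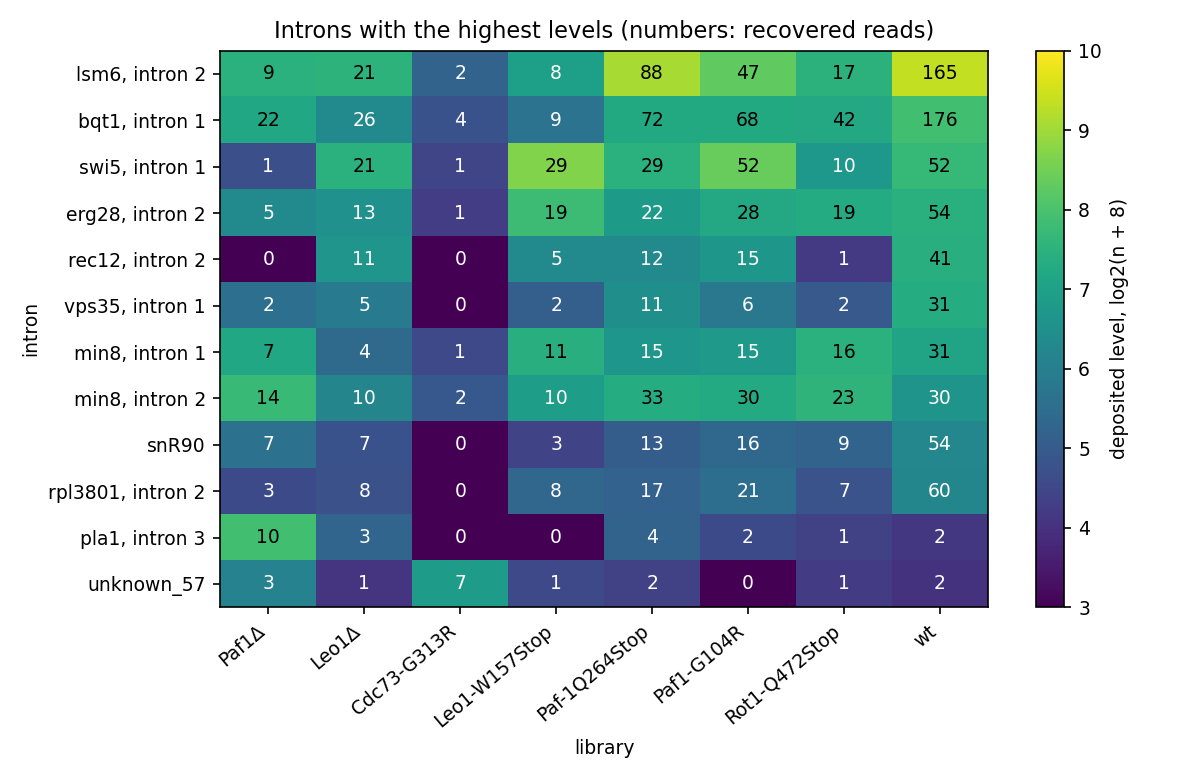
Deposited level, log2(n + 8), by colour and recovered reads by number for the introns that were among the 10 of highest level in wt or in any library (rows, by wt level) in the 8 libraries (columns). lsm6 intron 2 is highest in wt with 165 reads, and Cdc73-G313R is low in every row but unknown_57, where it has 7 reads.

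In 4 multi-intron genes without a coding gene opposite the intron, 1 intron held nearly all intron reads of its gene in wt. They were picked from the introns named for their values, and how many multi-intron genes share this was not counted. In mba1, for 1, both introns had 5 reads in wt. Intron 1 of lsm6 had 1 read in Leo1Δ and in Cdc73-G313R and 0 in the other 6 libraries, while the second intron had the numbers given above. The transcript of lsm6 had 31 reads in Paf1Δ, 90 in Leo1Δ, 6 in Cdc73-G313R, 22 in Leo1-W157Stop, 184 in Paf-1Q264Stop, 174 in Paf1-G104R, 61 in Rot1-Q472Stop and 573 in wt, and its second intron is 8.46% of its length. That intron's share of the transcript's reads was 47.8% (40.4 to 55.3%) in Paf-1Q264Stop and between 23.3% and 36.4% in the other mutants, against 28.8% (25.1 to 32.7%) in wt. The share was thus above the intron's share of length in all 8 libraries, and in Cdc73-G313R the interval (4.33 to 77.7%) includes it.

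The second intron of rec12, the fission yeast Spo11 homologue that makes meiotic DNA breaks, lies opposite the non-coding RNA SPNCRNA.760. It had 0 reads in Paf1Δ, 11 in Leo1Δ, 0 in Cdc73-G313R, 5 in Leo1-W157Stop, 12 in Paf-1Q264Stop, 15 in Paf1-G104R, 1 in Rot1-Q472Stop and 41 in wt. The other 3 introns of rec12 had at most 3 reads in any library. In wt the second intron held 41.4% (31.6 to 51.8%) of the transcript's reads in 3.91% of its length. With 0 reads in the mutant, the interval of the level ratio to wt reached up to 0.450 in Paf1Δ and up to 0.348 in Cdc73-G313R.

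Intron 1 of vps35, which encodes a subunit of the retromer that sorts cargo from endosomes, had fractional read numbers, as when a read is shared out over all places that it matches. They were 1.67 in Paf1Δ, 5 in Leo1Δ, 0 in Cdc73-G313R, 1.5 in Leo1-W157Stop, 10.7 in Paf-1Q264Stop, 6 in Paf1-G104R, 1.83 in Rot1-Q472Stop and 31.2 in wt. The other 4 introns of vps35 had 0 reads in every library. In wt the first intron held 86.1% (70.5 to 95.3%) of the reads in 1.30% of the transcript's length. Intron 4 of amk2, which encodes a regulatory subunit of AMP-activated kinase, had 15 reads in wt, where the other 3 introns had 0. Whether these intron sequences also occur elsewhere in the genome was not tested.

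**Figure D2:**
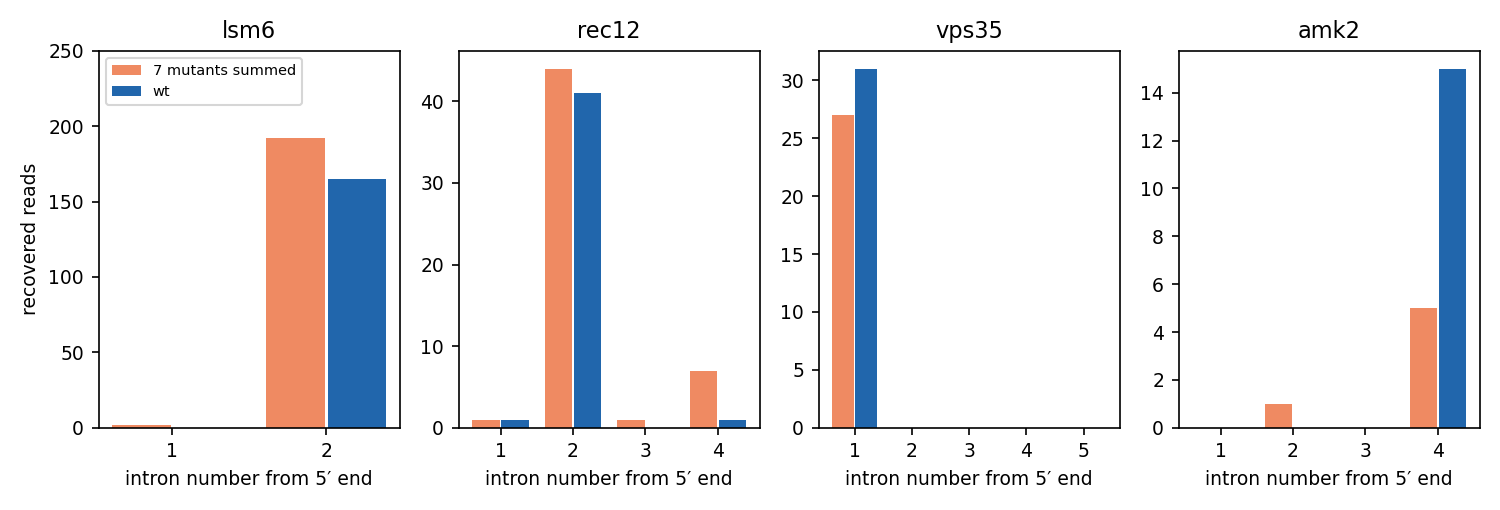
Recovered reads in each intron of lsm6, rec12, vps35 and amk2, numbered from the 5′ end of the gene and rounded to whole reads, summed over the 7 mutant libraries (orange, left) and in wt (blue, right). One intron per gene carries the reads: 165 in wt for lsm6, 41 for rec12, 31.2 for vps35 and 15 for amk2.

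Where an intron lies relative to other genes went with how much small RNA it held. Of the 935 introns, 99 lie opposite a transcript or UTR row on the other strand, 92 of them opposite a 3′ UTR. A further 106 lie opposite a non-coding RNA only, 15 have another overlap and 715 have no other row. The 99 introns opposite a transcript make up 8.89% of intron length and held 28.3% of intron reads in Paf1Δ, 40.9% in Leo1Δ, 49.3% in Cdc73-G313R, 56.7% in Leo1-W157Stop, 49.2% in Paf-1Q264Stop, 53.4% in Paf1-G104R, 49.4% in Rot1-Q472Stop and 50.1% in wt. In wt this came to 101 reads per kb, against 18.6 for introns opposite a non-coding RNA and 7.87 for those with no other row. At least 1 wt read was found in 69.7% (59.7 to 78.5%) of introns opposite a transcript and in 19.0% (16.2 to 22.1%) of introns with no other row. Of the 10 introns of highest wt level, 6 lie opposite a transcript.

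The same introns were set against the transcripts that contain them. Transcript rows are counted over the genomic length, introns included: with that length 93.4% of transcripts under 30 wt reads came out as whole reads, against 11.3% with the length without introns. In no library did an intron have more reads than its transcript. Introns are 9.68% of the length of the 525 transcripts. They held 3.99% of the reads in Paf1Δ, 4.10% in Leo1Δ, 2.62% in Cdc73-G313R, 3.18% in Leo1-W157Stop, 4.17% in Paf-1Q264Stop, 3.37% in Paf1-G104R, 3.94% in Rot1-Q472Stop and 4.33% (4.12 to 4.55%) in wt. The counting rule at intron borders is not given in the sources used here. If only reads lying wholly inside an intron were counted, introns would offer 8.07% of the start positions for reads of 18 nt and 7.10% for reads of 28 nt, which is still above the measured shares.

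Introns with no other row made up 9.35% of the length of their 412 transcripts and offered 6.89% of start positions at 28 nt. The reads in them were 3.07% of the transcripts' reads in Paf1Δ, 2.71% in Leo1Δ, 1.10% in Cdc73-G313R, 1.45% in Leo1-W157Stop, 2.37% in Paf-1Q264Stop, 1.54% in Paf1-G104R, 1.94% in Rot1-Q472Stop and 2.29% in wt. The intervals of Paf1Δ (2.66 to 3.53%) and wt (2.10 to 2.49%) do not overlap, and those of Cdc73-G313R (0.675 to 1.62%), Leo1-W157Stop and Paf1-G104R (1.34 to 1.75%) lie below that of wt. Since reads of 1 place are not independent molecules, these intervals are narrower than the true uncertainty. Without the introns of lsm6 the shares were 2.95% in Paf1Δ, between 0.956% and 2.44% in the other mutants and 1.62% in wt, and the intervals of Leo1-W157Stop and wt overlapped. That of Leo1Δ (2.10 to 2.82%), which overlapped the wt interval with lsm6 included, then lay above it.

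Introns opposite a transcript are 7.24% of the length of their 67 transcripts and held 5.73% of the reads in Paf1Δ, 6.75% in Leo1Δ, 6.15% in Cdc73-G313R, 6.74% in Leo1-W157Stop, 7.71% in Paf-1Q264Stop, 7.27% in Paf1-G104R, 7.07% in Rot1-Q472Stop and 8.34% (7.80 to 8.91%) in wt. Read share divided by length share was therefore 0.791 to 1.15, against 0.118 to 0.329 for introns with no other row, and the 2 ranges over the 8 libraries did not overlap. Without bqt1 the quotient for introns opposite a transcript was 0.659 to 0.943, still above the other range. Introns opposite a non-coding RNA had quotients of 0.272 to 0.504, which overlap those of introns with no other row. The groups lie in different transcripts, and a read-length or base-composition effect on these quotients was not tested.

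**Figure D3:**
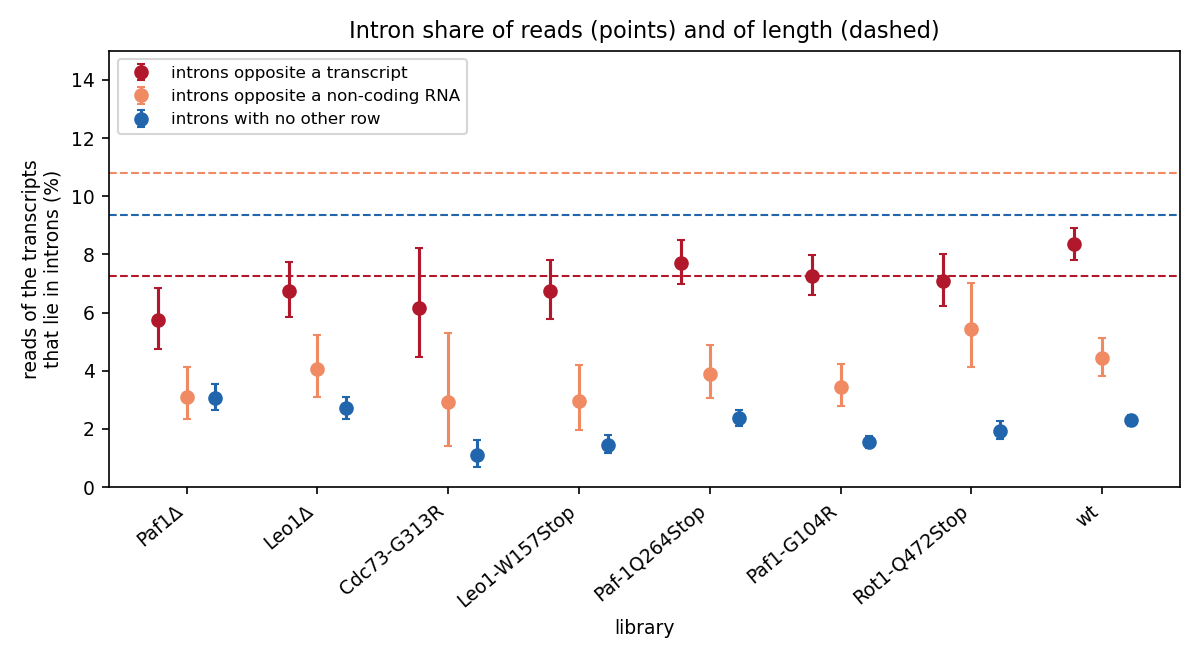
Share of the reads of intron-containing transcripts that lie in their introns (points, %, with exact 95% Clopper-Pearson intervals of the counts) for 3 groups of introns in each library, and the introns' share of transcript length (dashed lines in the same colours). Introns opposite a transcript (red) sit near their length share of 7.24%, and introns with no other row (blue) lie at 1.10 to 3.07%, below theirs of 9.35%.

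The groups were also compared within classes of intron length, again as read share over length share. In introns of 51 to 75 nt this quotient was 0.956 to 1.87 opposite a transcript (28 introns) and 0.0890 to 0.296 with no other row (226 introns). In introns over 150 nt it was 0.845 to 1.31 (12 introns) and 0.125 to 0.394 (121 introns), so in both classes the ranges over the 8 libraries did not overlap. They overlapped in the other classes. In introns of 35 to 50 nt, close to the length of the reads themselves, the ranges were 0.477 to 0.920 (38 introns) and 0.171 to 0.713 (213 introns), with the introns opposite a transcript higher in each library. In introns of 76 to 150 nt they were 0.317 to 0.753 (19 introns) and 0.0907 to 0.360 (137 introns). In that class the group opposite a transcript was higher in every library but Paf1Δ, which had 0.317 opposite a transcript and 0.360 with no other row.

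Read intron by intron, an intron past level 5 was at least 1 above its transcript in 27 of 42 cases in Paf1Δ, 10 of 19 in Leo1Δ, 3 of 3 in Cdc73-G313R, 11 of 25 in Leo1-W157Stop, 14 of 22 in Paf-1Q264Stop, 16 of 25 in Paf1-G104R, 8 of 18 in Rot1-Q472Stop and 19 of 33 in wt. The same held for 65.1% of all intron and UTR rows past level 5 in Paf1Δ, 76.3% in Leo1Δ, 63.2% in Cdc73-G313R, 66.4% in Leo1-W157Stop, 76.9% in Paf-1Q264Stop, 73.3% in Paf1-G104R, 72.0% in Rot1-Q472Stop and 76.4% in wt. The intron shares were at or below these in all libraries but Cdc73-G313R, which had 3 such introns. Introns and UTR rows both entered by their own level, which favours rows above their transcript. These counts therefore do not measure how often introns in general exceed their transcript. From the other side, introns in transcripts past level 5 had 0 reads in 42 of 67 cases in Paf1Δ, 15 of 27 in Leo1Δ, 6 of 7 in Cdc73-G313R, 27 of 43 in Leo1-W157Stop, 26 of 46 in Paf-1Q264Stop, 29 of 55 in Paf1-G104R, 28 of 47 in Rot1-Q472Stop and 36 of 69 in wt. By the median over libraries, the 5 introns farthest above their transcript were vps35 intron 1 (2.46), swi5 intron 1 (2.41), rec12 intron 2 (1.81), erg28 intron 2 (1.79) and min8 intron 1 (1.75).

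Mutants were then compared with wt as differences of levels, mutant minus wt. An intron entered if the higher of both libraries was at least at level 5 and was counted as higher or lower at a difference of at least 1 on the log2(n + 8) scale, which understates changes near the floor. Over all 935 introns the median difference was 0 in every mutant, as most have no reads in either library. Over all rows of the table it lay between -0.20 (Cdc73-G313R) and 0. Over rows of all kinds past level 5 the median difference was 0.01 in Paf1Δ, -0.70 in Leo1Δ, -2.00 in Cdc73-G313R, -0.48 in Leo1-W157Stop, -0.31 in Paf-1Q264Stop, -0.11 in Paf1-G104R and -0.39 in Rot1-Q472Stop, and the intron counts are read against these shifts.

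In Paf1Δ 31 of 65 introns were higher and 18 lower, where 22.3% of all rows were higher and 19.8% lower. Of the 31, 8 rested on 1 read and 7 on 2 reads in Paf1Δ. Among introns with at least 3 reads in the higher library 16 of 50 were higher and 18 lower, against 19.8% and 20.3% of all such rows. The interval of the level ratio lay above 1 for 13 of the 65 introns and below 1 for 5, where it lay above 1 for 28.0% and below 1 for 27.5% of all rows past level 5. An interval depends on read numbers, which are low in introns. Among the 31 higher introns, 7 lie opposite a transcript, where 30 of the 80 introns past level 5 in any library do.

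The other mutants had few higher introns. They numbered 3 of 38 in Leo1Δ (5.08% of all rows), 1 of 37 in Cdc73-G313R (3.92%), 6 of 44 in Leo1-W157Stop (8.73%), 3 of 40 in Paf-1Q264Stop (3.80%), 3 of 39 in Paf1-G104R (4.58%) and 2 of 38 in Rot1-Q472Stop (8.37%). Lower introns numbered 17 in Leo1Δ (29.6% of all rows), 31 in Cdc73-G313R (74.9%), 22 in Leo1-W157Stop (32.9%), 13 in Paf-1Q264Stop (12.6%), 9 in Paf1-G104R (9.79%) and 18 in Rot1-Q472Stop (26.3%). In each mutant the lower introns made up a larger share of those compared than lower rows did of all rows, from 23.1% in Paf1-G104R to 83.8% in Cdc73-G313R. Past level 5 were 35 introns in wt and 4 in Cdc73-G313R, where 37 were compared, so most of these entered through wt alone. An intron that enters through a high wt level is more readily lower in the mutant. The same filter was used for all rows, of which 2078 were past level 5 in wt, where 2169 were compared in Cdc73-G313R. Why the share was larger among introns was not tested, and it is not read here as a trait of introns. Of the lower introns, the number with 0 reads in the mutant was 10 of 18 in Paf1Δ, 4 of 17 in Leo1Δ, 20 of 31 in Cdc73-G313R, 15 of 22 in Leo1-W157Stop, 3 of 13 in Paf-1Q264Stop, 3 of 9 in Paf1-G104R and 7 of 18 in Rot1-Q472Stop. The wt library was the deepest, and the part that depth had in these counts was not tested.

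With at least 3 reads required in the higher library, the number of lower introns was the same in each mutant, while 3 in place of 6 were higher in Leo1-W157Stop and 1 in place of 2 in Rot1-Q472Stop. The higher and lower introns then numbered 3 and 17 of 38 in Leo1Δ (4.66% and 29.7% of all such rows), 1 and 31 of 37 in Cdc73-G313R (3.57% and 75.1%), 3 and 22 of 41 in Leo1-W157Stop (8.07% and 33.1%), 3 and 13 of 40 in Paf-1Q264Stop (3.60% and 12.6%), 3 and 9 of 39 in Paf1-G104R (4.32% and 9.63%) and 1 and 18 of 37 in Rot1-Q472Stop (7.81% and 26.3%). Introns past level 5 whose ratio interval lay below 1 numbered 13 in Leo1Δ (61.9% of all rows), 15 in Cdc73-G313R (74.9%), 5 in Leo1-W157Stop (40.9%), 8 in Paf-1Q264Stop (41.8%), 7 in Paf1-G104R (27.6%) and 10 in Rot1-Q472Stop (41.1%), of the numbers compared above. In each mutant that is a smaller share than among all rows.

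Centred on the median of all rows past level 5, 31 introns were higher and 18 lower in Paf1Δ, where 22.1% and 19.9% of all rows were. The numbers became 4 and 6 in Leo1Δ (9.76% and 6.21% of all rows), 6 and 11 in Cdc73-G313R (25.2% and 17.1%), 7 and 19 in Leo1-W157Stop (17.9% and 20.5%), 5 and 6 in Paf-1Q264Stop (6.38% and 7.04%), 3 and 7 in Paf1-G104R (5.82% and 7.60%) and 4 and 14 in Rot1-Q472Stop (13.8% and 15.5%). Under quantile normalization 13 of 44 introns were higher and 16 lower in Paf1Δ, where 21.9% and 21.5% of all rows were. The numbers were then 5 and 6 of 38 in Leo1Δ (10.7% and 8.91%), 21 and 21 of 52 in Cdc73-G313R (34.2% and 35.8%), 7 and 16 of 40 in Leo1-W157Stop (17.1% and 20.9%), 5 and 4 of 34 in Paf-1Q264Stop (6.37% and 6.69%), 2 and 7 of 34 in Paf1-G104R (5.93% and 6.25%) and 3 and 14 of 32 in Rot1-Q472Stop (13.2% and 15.9%). More introns were lower than higher under both scalings in Leo1Δ, Leo1-W157Stop, Paf1-G104R and Rot1-Q472Stop, by 1 or 2 introns in Leo1Δ. In Paf1Δ more were higher than lower in the deposited values and fewer after quantile normalization.

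**Figure D4:**
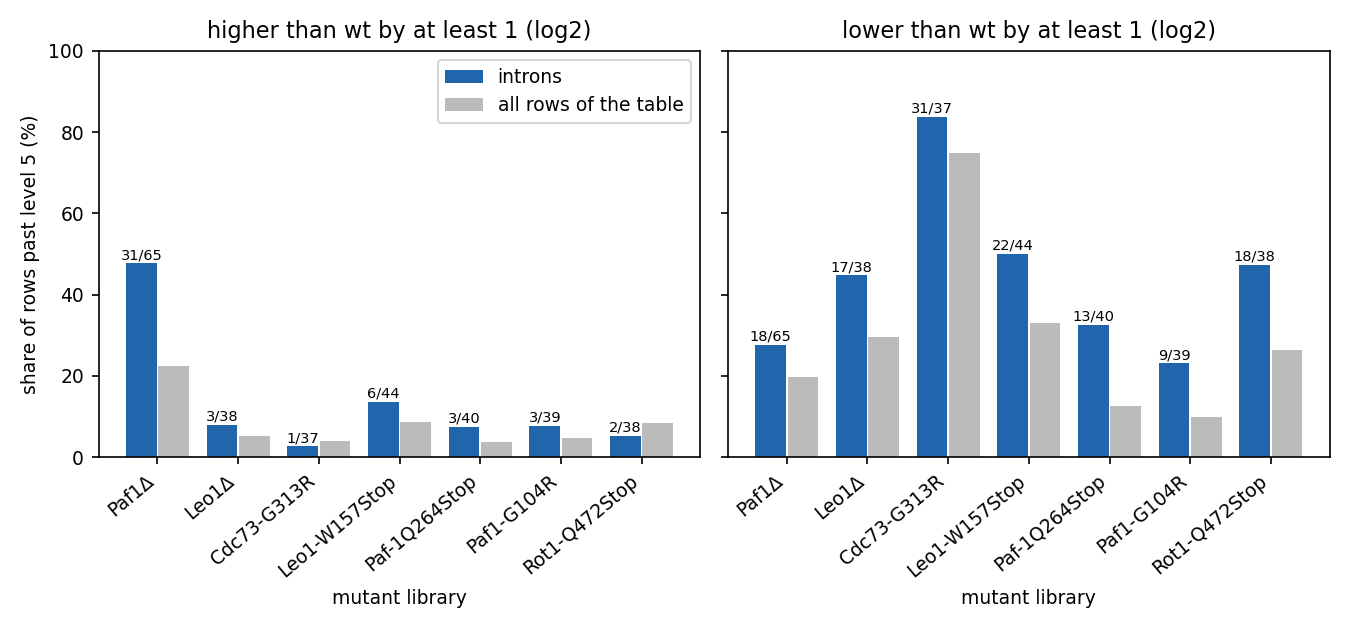
Share of introns (blue, left bar) and of all rows of the table (grey, right bar) past level 5 that were higher (left panel) or lower (right panel) than wt by at least 1 on the log2(n + 8) scale in each mutant library. Numbers give called introns over introns compared, as 31/65 higher in Paf1Δ and 31/37 lower in Cdc73-G313R.

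Most of the higher and lower introns lay in transcripts whose remainder differed by less than 1. With intron reads and lengths removed, the transcript was also higher by at least 1 for 4 of 29 higher introns in Paf1Δ, and also lower by at least 1 for 3 of 17 lower introns in Paf1Δ, 3 of 15 in Leo1Δ, 14 of 29 in Cdc73-G313R, 1 of 20 in Leo1-W157Stop, 1 of 12 in Paf-1Q264Stop, 0 of 9 in Paf1-G104R and 1 of 17 in Rot1-Q472Stop. By any amount, the remainder of the transcript was also higher for 19 of the 29 higher introns in Paf1Δ. It was also lower for 10 of 17 lower introns in Paf1Δ, 15 of 15 in Leo1Δ, 29 of 29 in Cdc73-G313R, 13 of 20 in Leo1-W157Stop, 9 of 12 in Paf-1Q264Stop, 5 of 9 in Paf1-G104R and 9 of 17 in Rot1-Q472Stop. An intron is shorter and holds fewer reads than its transcript, so its counting error is larger. A remainder less than 1 above the floor of 3 in wt could not be lower by at least 1. Such were the wt remainders of amk2 (3.76), qcr10 (3.92) and vps35 (3.06). How many remainders were so low was not counted.

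The largest positive difference in Paf1Δ was that of intron 3 of pla1, which encodes the canonical poly(A) polymerase. It had 10 reads in Paf1Δ, 3 in Leo1Δ, 0 in Cdc73-G313R, 0 in Leo1-W157Stop, 4 in Paf-1Q264Stop, 2 in Paf1-G104R, 1 in Rot1-Q472Stop and 2 in wt. The level ratio of Paf1Δ to wt was 23.9 (5.09 to 224), while the whole transcript differed by -0.04, with 52 reads in Paf1Δ and 259 in wt. Introns 1 and 2 of pla1 had at most 1 read in any library. Intron 1 of ubc4, a ubiquitin-conjugating enzyme gene used in splicing studies, lies opposite SPNCRNA.1382 and came next. It had 9 reads in Paf1Δ, 1 in Leo1Δ, 0 in Cdc73-G313R, 0 in Leo1-W157Stop, 1 in Paf-1Q264Stop, 0 in Paf1-G104R, 2 in Rot1-Q472Stop and 1 in wt, a ratio of 43.0 (5.96 to 1885) in Paf1Δ. Those 9 are 56.3% (29.9 to 80.3%) of the 16 transcript reads in Paf1Δ, and the intron is 7.28% of the length. Unlike that of pla1, the whole ubc4 transcript was also higher in Paf1Δ, by 1.13, and by 0.77 without its introns.

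The introns of ptc3, nda2 and msh6 were higher in Paf1Δ with fewer reads. Intron 2 of ptc3, a protein phosphatase gene, had 2 reads in Paf1Δ and 0 in wt. Its interval of the level ratio starts at 0.897 and so includes 1. Intron 1 of nda2, an alpha-tubulin gene, had 4 reads in Paf1Δ and 0 in wt, with an interval of the level ratio that starts at 3.15. The msh6 intron had the same numbers. The whole nda2 transcript was also higher in Paf1Δ, by 1.05, and by 0.91 without its intron.

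In Leo1Δ the higher intron with most reads was that of rpl2302, with 31 reads, against 0 in wt. Intron 1 of ypt3, a Rab GTPase gene, had 4 reads in Leo1Δ, against 0 in wt, with an interval of the ratio that starts at 1.41. In Leo1-W157Stop intron 2 of rps29, a ribosomal protein gene, had 3 reads and intron 4 of qcr10 had 2, each against 1 in wt. The msh6 intron was also among the 3 largest positive differences in Leo1-W157Stop, with 4 reads, against 0 in wt. In Paf-1Q264Stop intron 1 of emc5, a gene of the ER membrane protein complex, had 4 reads, against 0 in wt, with an interval that starts at 1.02, and intron 1 of sfc2, the TFIIIA gene, had 5, against 1 in wt. In Paf1-G104R introns 2 and 3 of the meiotic cohesin gene rec8 had 6 and 4 reads, against 3 and 1 in wt, and intron 1 of spx2 had 4, against 1 in wt. For these introns of rps29, qcr10, sfc2, rec8 and spx2 the interval of the ratio included 1. It started at 0.876 for rps29, at 0.861 for sfc2 and at 0.698 and 0.647 for introns 2 and 3 of rec8. In Cdc73-G313R the single higher row was unknown_57 (chr3:926625-926671), with 7 reads there, 3 in Paf1Δ, at most 2 in the remaining mutants and 2 in wt, a ratio of 13.0 (2.47 to 128).

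Of 35 introns past level 5 in wt, 3 were lower by at least 1 in all 7 mutants, where 2.31% of all rows past level 5 in wt met the same rule. Intron 3 of qcr10, a gene for a subunit of respiratory complex III, had 3 reads in Paf-1Q264Stop and 0 in the other 6 mutants, against 15 in wt. At the wt level 9.75 reads are predicted in Paf-1Q264Stop and 3.14 in Paf1Δ. The interval of the qcr10 ratio included 1 in Paf1Δ (up to 1.33), Cdc73-G313R (1.03), Leo1-W157Stop (1.01) and Paf-1Q264Stop (1.09). It left out 1 in Leo1Δ (up to 0.597), Paf1-G104R (0.456) and Rot1-Q472Stop (0.719). The amk2 intron described above had 0 reads in Paf1Δ, 1 in Leo1Δ, 0 in Cdc73-G313R, 0 in Leo1-W157Stop, 1 in Paf-1Q264Stop, 3 in Paf1-G104R, 0 in Rot1-Q472Stop and 15 in wt. The whole amk2 transcript differed by -0.09 to -0.66. Without its introns it stood at a level of 3.76 in wt, less than 1 above the floor of 3. It could thus not be lower by 1, and the 2 differences cannot be set against each other. The intron of rpl4302, which encodes ribosomal protein L43 and lies opposite ucp8 (chr2:1513521-1513582), had at most 2 reads in the mutants, against 11 in wt. For rpl4302 the wt level predicts 2.30 to 7.15 reads in the mutants, and the interval of the ratio left out 1 in Leo1Δ (up to 0.853) and included it in the other 6. All 7 comparisons share the wt library, so a high count in that library makes an intron lower in all of them at once. A total of 19 of the 35 introns were below wt in every mutant by any amount, against 43.7% of all rows. No intron was higher by at least 1 in all 7 mutants, which 0.147% of all rows were.

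Intron 3 of sbh1, a gene of the Sec61 translocon, also had more reads in wt than in the mutants, with 1 in Paf1Δ, 3 in Leo1Δ, 0 in Cdc73-G313R, 2 in Leo1-W157Stop, 0 in Paf-1Q264Stop, 4 in Paf1-G104R, 0 in Rot1-Q472Stop and 16 in wt. The ratio of Paf-1Q264Stop to wt had an upper bound of 0.399. Intron 2 of the histone acetyltransferase gene mst2 (opposite sec3) had 0 reads in Leo1Δ and in Leo1-W157Stop, 8 in Paf-1Q264Stop and 11 in wt. Intron 1 of mba1, intron 2 of the checkpoint clamp gene rad1 (opposite SPAC1952.08c) and intron 5 of the Rab GTPase gene ypt5 (opposite tpz1) had at most 3 reads in any mutant, against 5, 7 and 6 in wt. For these introns the interval of the ratio to wt included 1 in every mutant.

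In rpl2302 and msh6, both on chromosome 3, intron and exons can be compared at higher read numbers. The intron of rpl2302, which encodes ribosomal protein L23, is the intron of the set nearest to ade6, 4155 nt from the ade6 transcript row. It had 1 read in Paf1Δ, 31 in Leo1Δ, 1 in Cdc73-G313R, 0 in Leo1-W157Stop, 12 in Paf-1Q264Stop, 1 in Paf1-G104R, 6 in Rot1-Q472Stop and 0 in wt. The interval of the level ratio to wt starts at 16.9 in Leo1Δ, at 4.28 in Paf-1Q264Stop and at 3.04 in Rot1-Q472Stop. The remainder of the transcript had 4 reads in Paf1Δ, 98 in Leo1Δ, 0 in Cdc73-G313R, 1 in Leo1-W157Stop, 42.5 in Paf-1Q264Stop, 13 in Paf1-G104R, 28.5 in Rot1-Q472Stop and 6 in wt, so the same 3 mutants were highest. In Leo1Δ the intron held 24.0% (17.0 to 32.3%) of the transcript's reads, with the interval below its 32.8% of the length. The 3 introns of phb2, the next gene with introns at 6078 nt from ade6, had at most 2 reads in any mutant and 2 in wt.

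The intron of msh6, a mismatch repair gene (chr3:1830973-1831087), had few reads in libraries with many over its exons. Without the intron the msh6 transcript had 44 reads in Paf1Δ, 390 in Leo1Δ, 22 in Cdc73-G313R, 598 in Leo1-W157Stop, 309 in Paf-1Q264Stop, 632 in Paf1-G104R, 97 in Rot1-Q472Stop and 68 in wt. The intron had 4 reads in Paf1Δ, 1 in Leo1Δ, 0 in Cdc73-G313R, 4 in Leo1-W157Stop, 1 in Paf-1Q264Stop, 3 in Paf1-G104R, 0 in Rot1-Q472Stop and 0 in wt. In Leo1Δ this was 0.256% (0.00647 to 1.42%) of the transcript's reads, in Paf1-G104R 0.472% (0.0975 to 1.37%) and in Leo1-W157Stop 0.666% (0.182 to 1.70%), with all 3 intervals below the intron's 2.70% of the length. In Paf1Δ it was 8.33%, above that share, with a lower bound of 2.32% below it. Intron 1 of rpl3702 (ribosomal protein L37) had 4 reads in Rot1-Q472Stop, 3 in Paf1-G104R, 2 in Paf-1Q264Stop and 0 in the others, wt included. The interval of the ratio of Rot1-Q472Stop to wt starts at 1.70.

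**Figure D5:**
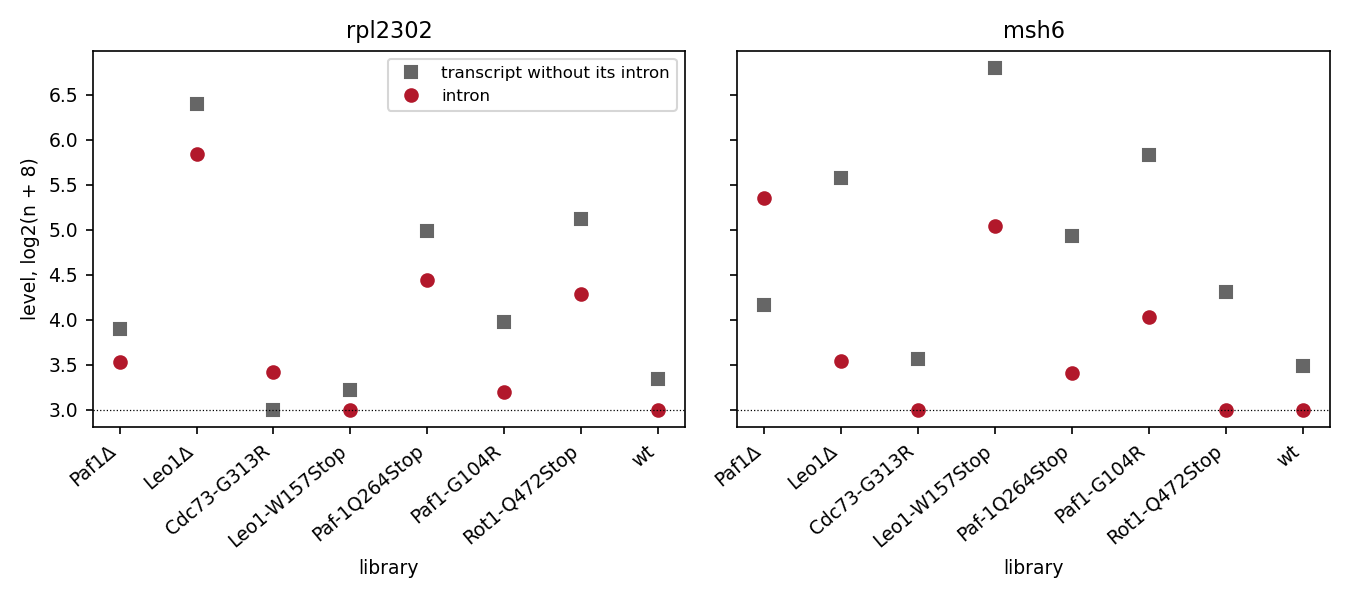
Level, log2(n + 8), of the intron (red circles) and of the transcript without its intron (grey squares) of rpl2302 and msh6 in the 8 libraries, with the level of 0 reads at 3 (dotted). In Leo1Δ both parts of rpl2302 are high (intron 5.84), while the msh6 intron is at 3.54 where the remainder of its transcript is at 5.58.

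Gene groups of interest held few introns. No intron row belongs to the Paf1 complex or to ade6, bub1, vtc4 or nmt1. The RNAi and heterochromatin list had 7 introns in 2 genes with at most 2 reads per library in sum. Intron 3 of arb1, which encodes an Argonaute-binding protein, was counted as higher in Paf1Δ with 1 read in each of both libraries. Genes with meiotic regulated splicing had 6 introns in 2 genes, none past level 5, and 0 to 6 reads in the mutants in sum, against 13 in wt. These sums are not scaled to depth, and wt was the deepest library, so they show no fall in the mutants. The splicing study genes had 8 introns in 4 genes, of which 2 were higher in Paf1Δ (ubc4 and nda2) and 0 were called in the other mutants.

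Of 15 introns in 9 splicing factor genes, 0 were higher in any mutant and between 0 (Paf-1Q264Stop) and 3 were lower. Besides lsm6 these were introns of lsm1, a decapping activator gene, whose introns 1 and 2 had 8 and 9 reads in wt. Of 63 introns in 57 ribosomal protein genes, 0 or 1 were higher in each mutant and 1 to 3 lower. The ribosomal protein introns with most wt reads lie opposite other transcripts. Intron 2 of rpl3801 (opposite SPBC577.03c) had 0 to 21 reads in the mutants, against 60 in wt. Intron 2 of rps3002 (opposite abz2) had 31 reads in Paf-1Q264Stop and 1 to 11 in the other mutants, against 32 in wt. Its level was above wt in Paf-1Q264Stop, at 6.40 against 5.89, a ratio of 1.49 (0.880 to 2.52), and below wt in the other 6 mutants. The median difference of each of these lists was 0 in every mutant, as it was for all introns.

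The 7 introns with a snoRNA inside had 27 reads in Paf1Δ, 13 in Leo1Δ, 3 in Cdc73-G313R, 5 in Leo1-W157Stop, 15 in Paf-1Q264Stop, 21 in Paf1-G104R, 16 in Rot1-Q472Stop and 35 in wt. Their median difference was 0.51 in Paf1Δ and between -0.49 and -0.02 in the other mutants. The introns of SPAC29A4.02c and of the SAGA subunit gene spt20 were higher in Paf1Δ, with ratios of 3.98 (1.54 to 10.1) and 7.17 (1.70 to 34.5). Without introns, the transcript of SPAC29A4.02c was higher in Paf1Δ by 1.06 and that of spt20 by 0.05.

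Introns of non-coding genes were also among the rows. The intron assigned to snR90 (chr1:4937014-4937169) had 7 reads in Paf1Δ, 7 in Leo1Δ, 0 in Cdc73-G313R, 3 in Leo1-W157Stop, 13 in Paf-1Q264Stop, 16 in Paf1-G104R, 9 in Rot1-Q472Stop and 54 in wt, while the snoRNA row beside it had at most 1 read in any library. The level of this intron was below wt in all 7 mutants. The intron also lies within the row of the non-coding RNA SPNCRNA.1038 (chr1:4936907-4937569). That row had 70 reads in wt and 0 (Cdc73-G313R) to 31 (Paf1-G104R) in the mutants. To which of these genes the reads belong was not tested. The U6 small nuclear RNA gene of this yeast carries an intron of the mRNA type. The row of that intron (snu6, chr1:2562323-2562373), named here after its values were seen, had 0 reads in Paf1Δ, 2 in Leo1Δ, 0 in Cdc73-G313R, 0 in Leo1-W157Stop, 9 in Paf-1Q264Stop, 5 in Paf1-G104R, 6 in Rot1-Q472Stop and 11 in wt. The U6 row around it had 62 reads in Paf1Δ, 20 in Leo1Δ, 2 in Cdc73-G313R, 29 in Leo1-W157Stop, 53 in Paf-1Q264Stop, 42 in Paf1-G104R, 43 in Rot1-Q472Stop and 47 in wt. Paf1Δ thus had the most reads over the U6 row and 0 over its intron, where Cdc73-G313R and Leo1-W157Stop also had 0. A count of 11 in wt predicts 2.30 reads in Paf1Δ, below the 3 that a count of 0 allows. The 0 in Paf1Δ is therefore too few reads to show a loss.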

How the data were processed

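The libraries were made from gel-purified RNA of 18 to 28 nt out of 25 µg of small RNA per strain, per the labels' protocols. As tools, the submitters' processing notes list CASAVA 1.8 and Bowtie 0.9.9.1, without their roles. Which genome build, annotation and strand setting produced the counts was not stated there. The deposited table holds log2 values of 8 libraries with 1 shared minimum of 3 and 1 shared linear total of 907489, so each was read as log2(n + 8). The value of 1 read was found by least squares on multiples up to 20, after which 79.7% to 89.2% of rows above 0 were whole within 0.05.

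Introns were matched to transcripts by name, "unknown" rows by position, and 28 had none. Overlaps came from the table's own rows. Intervals are exact 95% Clopper-Pearson intervals, for level ratios conditional on the summed reads. They and the limit of 3 reads for a count of 0 cover counting error only, since the labels describe no tags that would tell molecules apart. Python 3.11.15, numpy 2.4.6, pandas 2.3.3, scipy 1.17.1 and matplotlib 3.10.9 were used.

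Named introns are the 10 of highest level in wt or in any library, those past 1 in all 7 mutants, 3 per direction in each mutant, the 5 farthest above their transcript, and those past level 5 in any library in the listed gene groups. The members and lists were chosen with earlier results of these data known.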

Additional observations from a re-analysis of the deposited data

How the results depend on the processing

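Each strain has 1 library, so leaving out a replicate was not possible. No paired analysis was possible because the strains share 1 replicate number only. With no level filter the higher introns numbered 90 in Paf1Δ, 30 in Leo1Δ, 11 in Cdc73-G313R, 32 in Leo1-W157Stop, 10 in Paf-1Q264Stop, 15 in Paf1-G104R and 38 in Rot1-Q472Stop, and the lower ones 39, 35, 61, 43, 27, 25 and 42 in the same strains. With a level filter of 6 instead of 5 there were 4 higher in Paf1Δ, 1 in Cdc73-G313R and 0 in the other 5, and 9 lower in Paf1Δ, 9 in Leo1Δ, 13 in Cdc73-G313R, 7 in Leo1-W157Stop, 6 in Paf-1Q264Stop, 5 in Paf1-G104R and 8 in Rot1-Q472Stop. The introns past that filter numbered 11 in Paf1Δ, 6 in Leo1Δ, 1 in Cdc73-G313R, 6 in Leo1-W157Stop, 10 in Paf-1Q264Stop, 9 in Paf1-G104R, 8 in Rot1-Q472Stop and 13 in wt, of which 8, 5, 0, 6, 8, 8, 6 and 11 were at least 1 above their transcript. Requiring 3 reads in place of a level kept 40 introns in Paf1Δ, 41 in Leo1Δ, 5 in Cdc73-G313R, 23 in Leo1-W157Stop, 58 in Paf-1Q264Stop, 59 in Paf1-G104R, 34 in Rot1-Q472Stop and 100 in wt. Recentring on the median of all rows gave 6 lower in Leo1Δ, 6 higher and 11 lower in Cdc73-G313R, 5 higher and 6 lower in Paf-1Q264Stop and 4 higher in Rot1-Q472Stop. Quantile normalization gave 13 higher in Paf1Δ, 5 higher and 6 lower in Leo1Δ, 21 higher in Cdc73-G313R, 5 higher and 4 lower in Paf-1Q264Stop, and a median difference over all introns of 0.008 in Cdc73-G313R; the cause was not tested. Under both alternatives added after seeing the data fewer introns are counted by construction. At least 3 reads in the higher library left 16 higher in Paf1Δ, 3 in Leo1-W157Stop and 1 in Rot1-Q472Stop. Without introns opposite a transcript there were 9 lower in Paf1Δ, 8 in Leo1Δ, 13 in Cdc73-G313R, 13 in Leo1-W157Stop, 7 in Paf-1Q264Stop and 11 in Rot1-Q472Stop. An offset of 1 in place of 8, leaving out introns that overlap a structural RNA, repeat or non-coding RNA, and transcripts without their introns moved no count by more than 1.5 times.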
